A study of Mus musculus with 8 samples.

Results

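The genes described here are 39 genes whose products build the mitotic spindle, move and compact chromosomes, and divide the cell: 12 kinesin motors, 10 spindle and microtubule-associated proteins, 4 proteins of the central spindle and the cleavage furrow, 4 mitotic kinases, 2 parts of the ubiquitin machinery that ends mitosis, and 7 proteins of chromosome structure. They were listed by name and role, with earlier results of these data known, and all 39 were found among the 55276 gene symbols of the count table. Bulk RNA-seq was made from the esophageal epithelium of C57BL6 mice aged 14 to 15 weeks, 2 females and 2 males. The epithelium had been peeled from the muscle and dissociated, and live cells with integrin beta-1 on their surface were sorted by their Cyto-ID fluorescence, a dye that collects in autophagic vesicles, into Cyto-ID Low and Cyto-ID High. Each animal (Female1, Female2, Male1, Male2) gave 1 library of each fraction, so that there were 4 libraries of each. Both fractions share the gate for live, integrin-positive cells. The labels name no genetic change, no further treatment and no gate that removes other cell types.

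Mitosis is driven by a wave of gene expression that rises in G2 and ends as cells divide. Kinesins are motors that walk along or take apart microtubules, condensin is a ring-shaped complex that folds chromosomes, and the anaphase-promoting complex (APC/C), switched on by Cdc20, marks mitotic proteins for destruction. In stratified squamous epithelium such as that of the esophagus, dividing cells lie in the basal layer, while cells that leave it stop dividing and differentiate. The title of the series names limited proliferation of cells with many autophagic vesicles, which is the question that the comparison of the fractions addresses for these genes.

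The libraries held 26285150 to 29301054 counts. The 10 basal markers (Krt5, Krt14, Krt15, Trp63, Itgb1, Itgb4, Itga6, Col17a1, Dst, Sox2) were present in every library, with a summed level of 22032 to 26255 CPM (counts scaled to a common library size, with TMM factors) in Low and 2882 to 4577 in High, and all 10 were lower in High past the threshold, with a median log2 fold change of −2.63. The 12 suprabasal markers, among them Krt4 and Krt13, summed to 9137 to 26597 CPM in Low and 145061 to 247412 in High, and all 12 were higher, with a median of 3.34. Libraries of Female2 held gastric transcripts, with 18.7 CPM in Low and 116 in High over 9 genes against at most 1.4 in the other 6 libraries. The High library of Male2 was low in leukocyte transcripts (24.6 CPM over 10 genes, against 40.6 to 101 elsewhere), in fibroblast transcripts (55.8 CPM over 8 genes, against 164 to 546 elsewhere), in endothelial transcripts (2.6 against 9.2 to 28.8) and in muscle transcripts (5.0 against 19.9 to 61.7). Of 7 tested leukocyte markers, Cd207 was lower in High (−2.24) and Cd68 higher (2.13). Of 8 fibroblast markers Dcn (−2.87) and Fbln1 (−1.93) were lower, and of 8 muscle markers Acta2 (−1.54). The median log2 fold change was −0.53 for the leukocyte markers, −0.41 for the fibroblast, −0.31 for the endothelial and −0.13 for the muscle markers.

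Almost the whole set was lower in the cells with much dye. All 39 genes passed the filter on low counts, and 37 fell in Cyto-ID High (edgeR's quasi-likelihood test with sex as a covariate, Benjamini-Hochberg adjusted p under 0.05 over 17344 genes), where 25.3% of all tested genes were lower. No member was higher past the threshold, against 23.4% of all tested genes. The other two, Ckap2 and Ckap5, did not pass. The median log2 fold change of the 39 was −2.89, beside −0.09 over all tested genes, and the quartiles were −3.06 and −2.24. Among the 39, 33 passed the threshold with a fitted decrease of 4-fold or more, against 5.88% of all tested genes by the same rule. For the same 37 genes, every High library lay below every Low library, which was the case for 24.9% of all tested genes, and in no member did every High library lie above every Low library (23.6% of all tested genes). In 26 of the members the mean of the High libraries stood at 8 to 16 percent of the mean of the Low libraries. In this bulk RNA, fewer dividing cells and less of these transcripts per cell cannot be told apart.

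**Figure D1:**
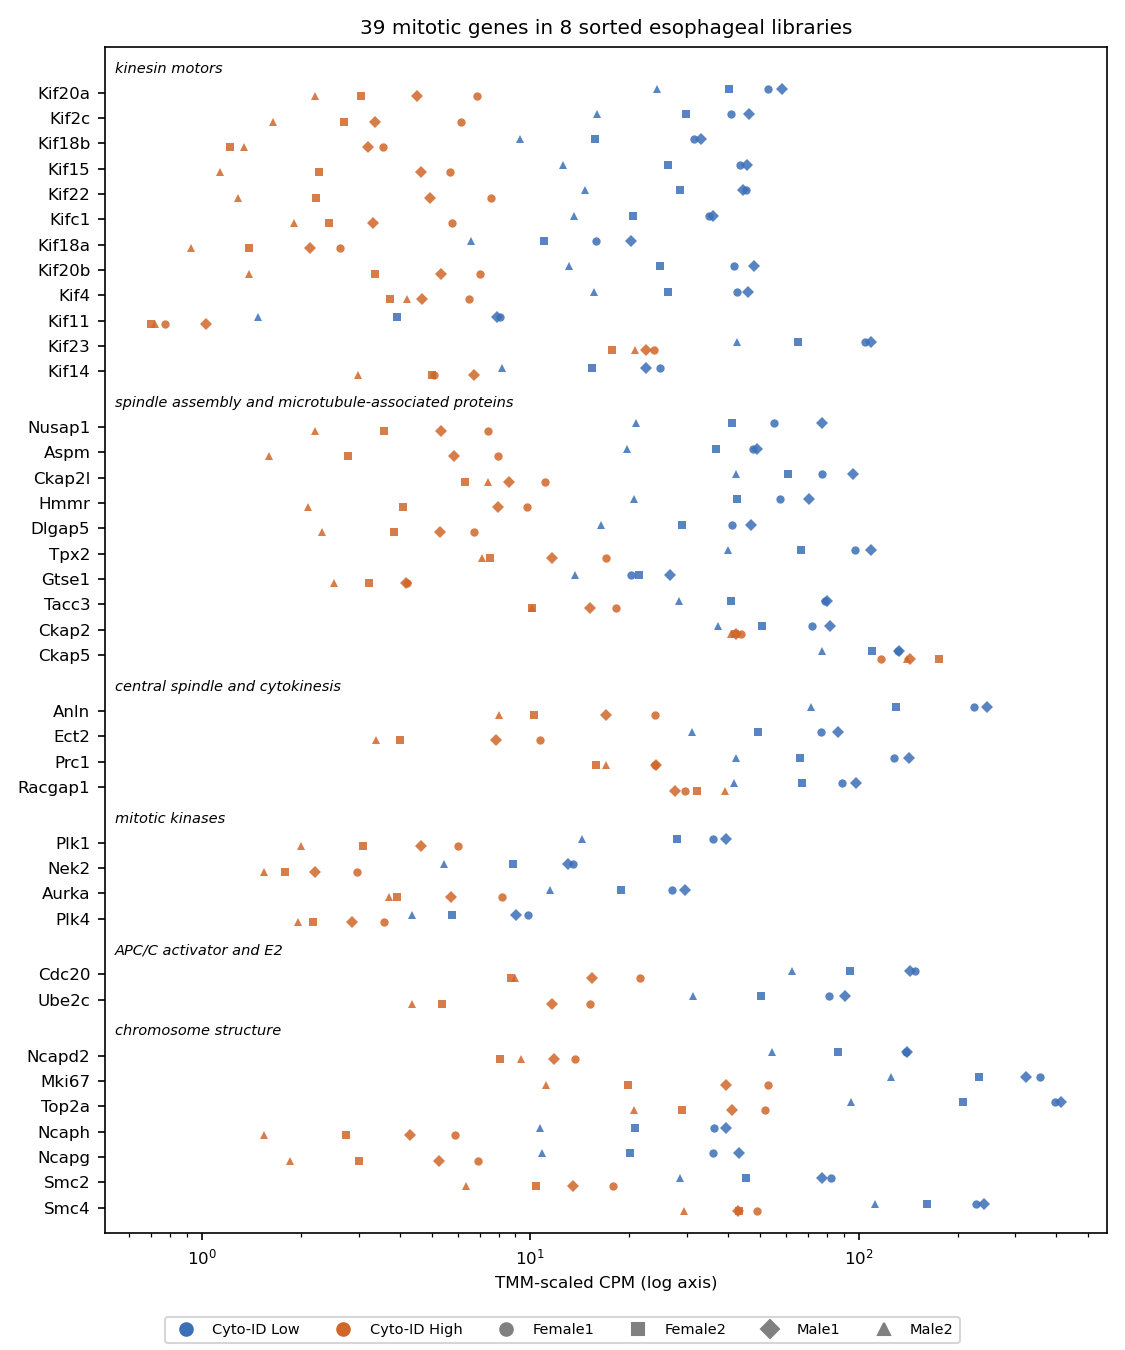
TMM-scaled CPM of the 39 genes on a log axis, 1 point per library (blue Cyto-ID Low, orange Cyto-ID High, marker shape the animal), grouped by role. The blue and orange points are apart in every row but those of Ckap2 and Ckap5, and the Low library of Male2 is the lowest blue point in all 39 rows.

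Since the members moved together, their promoters are shown for what they share. Many genes of G2 and mitosis carry a cell cycle genes homology region (CHR), which is bound by the DREAM and MuvB complexes, near their start, often beside CCAAT boxes, which are bound by NF-Y. RefSeq promoters (GRCm38.p6, 250 bases before to 50 after a start) were found for 35 of the 39 genes, 38 promoters in all, and not for Dlgap5, Kif20a, Smc4 and Tpx2. The letters searched on both strands were TTTGAA and TTCGAA for CHR and CCAAT for the CCAAT box, and neither motif contains the other, although matches can share a base at their ends. A CHR stood in 78.9% of the members' promoters and in 19.2% of all 32851 promoters of the table (17.6% of those of protein-coding genes). For CCAAT it was 76.3% and 37.4%, and for both together 68.4% and 7.52%. Within 50 bases of the start on either side, a CHR stood in 65.8% of the members' promoters and in 5.31% of all promoters. Sites resembling those of E2F (TTTCGCGC, TTTGGCGC or TTTCCCGC) were in 4 of the 38, those of Kif15, Kif18a, Ncapd2 and Ncapg, which is 10.5% against 1.84% of all promoters (2.41% of those of protein-coding genes). These shares are descriptions of letters, with no test and no measure of binding.

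The 150 bases before the start are printed for the 4 members with the most negative change that hold CHR and CCAAT inside that stretch, and for the 2 members that did not pass, so that they can be set side by side. Capitals mark CHR (TTTGAA, or TTCAAA for the other strand) and CCAAT (or ATTGG for the other strand), 5′ to 3′ on the strand of the gene. The stretches lie at chr6:125191587-125191736, minus strand, for Ncapd2, a subunit of condensin I, at chr3:27153855-27154004, minus strand, for Ect2, at chr7:135716380-135716529, minus strand, for Mki67, at chr7:127042421-127042570, minus strand, for Kif22, at chr8:22185820-22185969, minus strand, for Ckap2, and at chr2:91526612-91526761, plus strand, for Ckap5.
Ncapd2: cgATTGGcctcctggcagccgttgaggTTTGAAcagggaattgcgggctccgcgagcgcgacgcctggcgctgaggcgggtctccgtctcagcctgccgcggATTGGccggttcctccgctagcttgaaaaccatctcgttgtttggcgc
Ect2: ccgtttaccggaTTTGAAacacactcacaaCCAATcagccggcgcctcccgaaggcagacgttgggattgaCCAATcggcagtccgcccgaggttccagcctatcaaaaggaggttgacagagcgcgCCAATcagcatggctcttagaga
Mki67: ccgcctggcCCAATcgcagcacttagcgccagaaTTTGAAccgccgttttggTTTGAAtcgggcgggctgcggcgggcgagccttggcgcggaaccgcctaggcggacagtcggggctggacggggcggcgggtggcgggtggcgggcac
Kif22: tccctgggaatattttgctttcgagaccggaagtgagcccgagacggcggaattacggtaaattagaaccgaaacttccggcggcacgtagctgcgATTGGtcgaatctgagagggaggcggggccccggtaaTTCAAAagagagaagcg
Ckap2: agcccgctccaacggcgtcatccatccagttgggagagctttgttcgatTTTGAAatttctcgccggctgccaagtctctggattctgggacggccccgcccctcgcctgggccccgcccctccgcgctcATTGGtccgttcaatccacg
Ckap5: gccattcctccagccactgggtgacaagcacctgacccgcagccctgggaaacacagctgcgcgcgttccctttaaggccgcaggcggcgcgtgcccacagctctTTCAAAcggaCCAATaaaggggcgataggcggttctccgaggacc
The promoter of Mki67 holds CHR letters 116 and 98 bases before the start, and that of Kif22 on the other strand 17 bases before it. Ckap2 and Ckap5 hold both kinds of letters as well, CHR at 101 and 45 bases before the start and CCAAT at 20 and 35. The 28 members with a CHR in the whole window had a median log2 fold change of −2.94 and ranged from −3.51 to 0.36. The 7 without one (Gtse1, Kif18a, Ncaph, Nek2, Nusap1, Plk4 and Tacc3) had a median of −2.53 and ranged from −3.39 to −1.45. The ranges overlapped over most of their length.

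**Figure D2:**
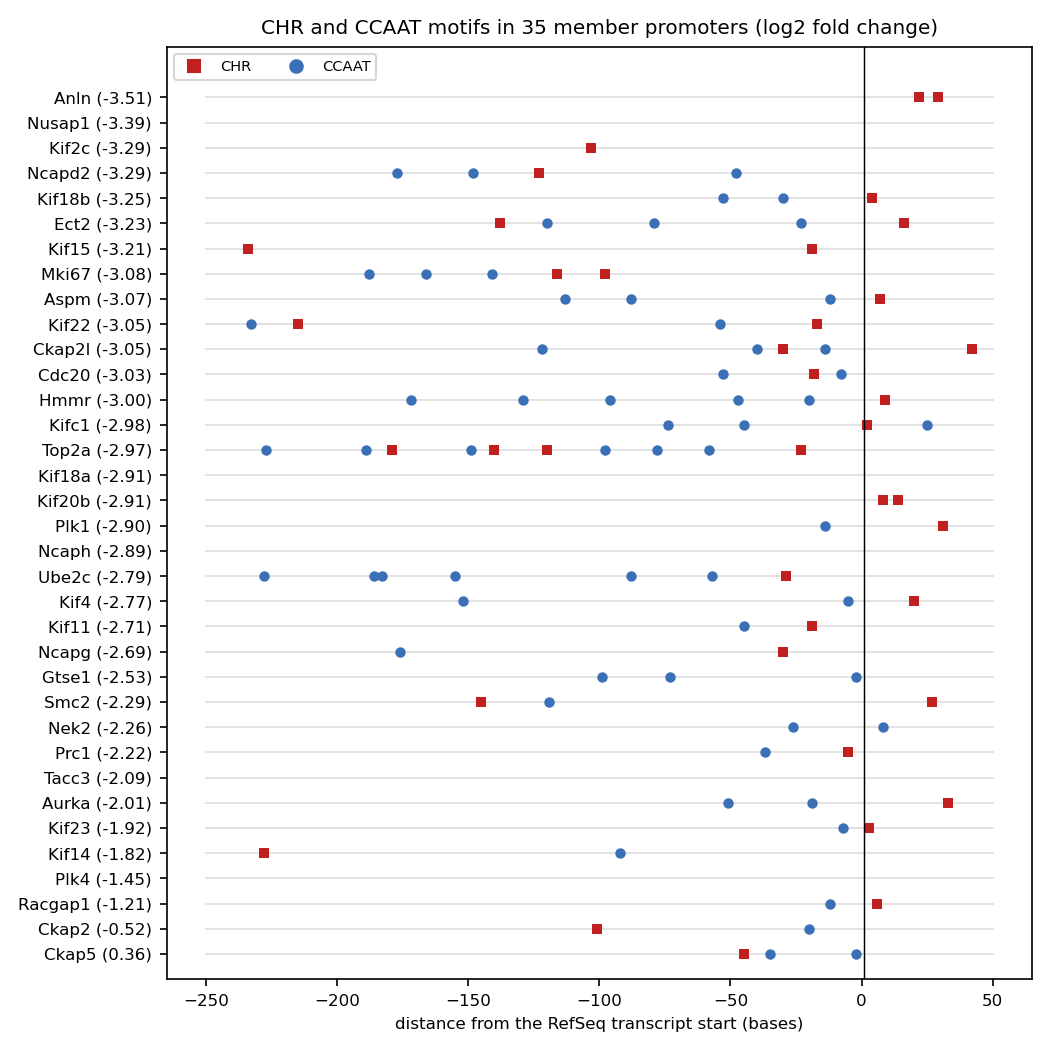
Positions of CHR (red squares) and CCAAT (blue circles) in 1 RefSeq promoter of each of 35 members, as the distance in bases of the motif's first base from the transcript start, ordered by log2 fold change (in brackets). Red squares gather close to the start, and the rows of Ckap2 and Ckap5 at the bottom hold both marks.

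All 12 mitotic kinesins fell, with a median log2 fold change of −2.95. The largest decrease was that of Kif20a (MKLP2), which carries the chromosomal passengers to the central spindle. Its Low libraries had 52.9 CPM (Female1), 40.2 (Female2), 58.5 (Male1) and 24.4 (Male2), and its High libraries 6.87, 3.05, 4.50 and 2.21 in the same order of animals. Every High library was thus below every Low library by a wide margin, and the log2 fold change was −3.41 (SE 0.37, edgeR adjusted p 6.8e-05). Exons of Cdc23 on the other strand cover 29.3% of the exon length of Kif20a, and the use of strand in counting is not given in the sources used here, so its reads are uncertain.

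Kif2c (MCAK), which takes microtubules apart at their ends, changed by −3.29 on the log2 scale (SE 0.42). Kif18b, which acts with it on astral microtubules, changed by −3.25 (SE 0.50), and Kif18a, which restrains the swaying of chromosomes on the spindle, by −2.91 (SE 0.41). Kif15, which helps to hold the spindle poles apart, changed by −3.21 (SE 0.53). Kif22 (Kid), which pushes chromosome arms outward, changed by −3.05 (SE 0.52), and Kifc1 (HSET), a motor that walks toward the minus end and gathers poles, by −2.98 (SE 0.40). Kif4, a chromosome-bound motor that also sets the length of the central spindle, changed by −2.77 (SE 0.35), and Kif20b by −2.91 (SE 0.51). The 8 values lay between −3.29 and −2.77, a spread of about the size of their standard errors. Exons of Pdzd11 on the other strand cover 15.1% of Kif4.

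Kif14 and Kif23 had the smallest decreases among the motors. Both work at the midbody late in cytokinesis, but Kif20a and Kif4, which act at the central spindle, had larger decreases (−3.41 and −2.77). Kif14 stood at 24.8, 15.5, 22.5 and 8.18 CPM in the Low libraries of Female1, Female2, Male1 and Male2, and at 5.09, 5.01, 6.75 and 2.98 in High. The lowest Low library, Male2, was only a little above the highest High library, Male1, and the change was −1.82 (SE 0.36, edgeR adjusted p 0.0021). Kif23 (MKLP1), a subunit of centralspindlin, changed by −1.92 (SE 0.29).

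Kif11 (Eg5), the motor that pushes spindle poles apart, was the least abundant member per length, at 0.716 CPM per kilobase of exon in Low. Its High libraries held 14 to 27 counts. It changed by −2.71 (SE 0.51, edgeR adjusted p 0.00176), and its High libraries were at 9.57, 17.7, 13.0 and 48.7 percent of the Low library of the same animal, with Male2 apart from the rest.

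Among the 10 spindle proteins, 8 fell and Ckap2 and Ckap5 did not pass. Nusap1, which bundles microtubules near chromosomes, had the largest decrease. It stood at 55.1 CPM in Low Female1, 41.2 in Low Female2, 77.2 in Low Male1 and 20.9 in Low Male2, and at 7.45, 3.57, 5.34 and 2.21 in the High libraries. The lowest Low library, Male2, was far above the highest High library, Female1, and the log2 fold change was −3.39 (SE 0.46, edgeR adjusted p 0.000229). Aspm, which holds microtubules at the poles, changed by −3.07 (SE 0.46), Hmmr, a centrosomal partner of Tpx2, by −3.00 (SE 0.49), and Dlgap5 (HURP), which stabilises kinetochore fibres, by −2.88 (SE 0.39). Gtse1, a microtubule-binding protein that also restrains p53, changed by −2.53 (SE 0.25) and Tacc3, which recruits Ckap5 to the spindle, by −2.09 (SE 0.36).

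Ckap2 and its paralog Ckap2l went apart. Ckap2l changed by −3.05 (SE 0.28, edgeR adjusted p 2.87e-05). Ckap2 stood at 72.1 CPM in Low Female1, 50.9 in Low Female2, 81.5 in Low Male1 and 37.2 in Low Male2, and at 43.7, 42.1, 42.2 and 41.0 in High. Its 4 High libraries were close to each other and inside the range of the Low libraries, with Low Male2 below all of them. The change of Ckap2 was −0.52 (SE 0.23, 95% interval −1.03 to −0.01), with an edgeR adjusted p of 0.0878. It passed with an adjusted p of 0.0045 under scaling by total counts and of 0.0107 without the Low library of Male2, in a range of 0.0045 to 0.295 over all alternatives. The difference between the changes of Ckap2 and Ckap2l was not tested.

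Ckap5 (XMAP215, chTOG), which speeds microtubule growth in interphase as well as in mitosis, had 132 CPM in Low Female1, 109.6 in Low Female2, 132 in Low Male1 and 77.1 in Low Male2. In High it had 117, 176, 143 and 140.1. The groups overlapped, and Ckap5 was lower in High in 1 of 4 animals, Female1. Its log2 fold change was 0.36 (SE 0.20, 95% interval −0.10 to 0.81, edgeR adjusted p 0.182), and −0.21 under scaling by total counts. Its partner Tacc3 was lower in all 4 animals, so that the ratio of Ckap5 to Tacc3 per length went from 0.618 to 1.02 in the Low libraries to 2.40 to 6.51 in the High libraries, with no overlap.

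**Figure D3:**
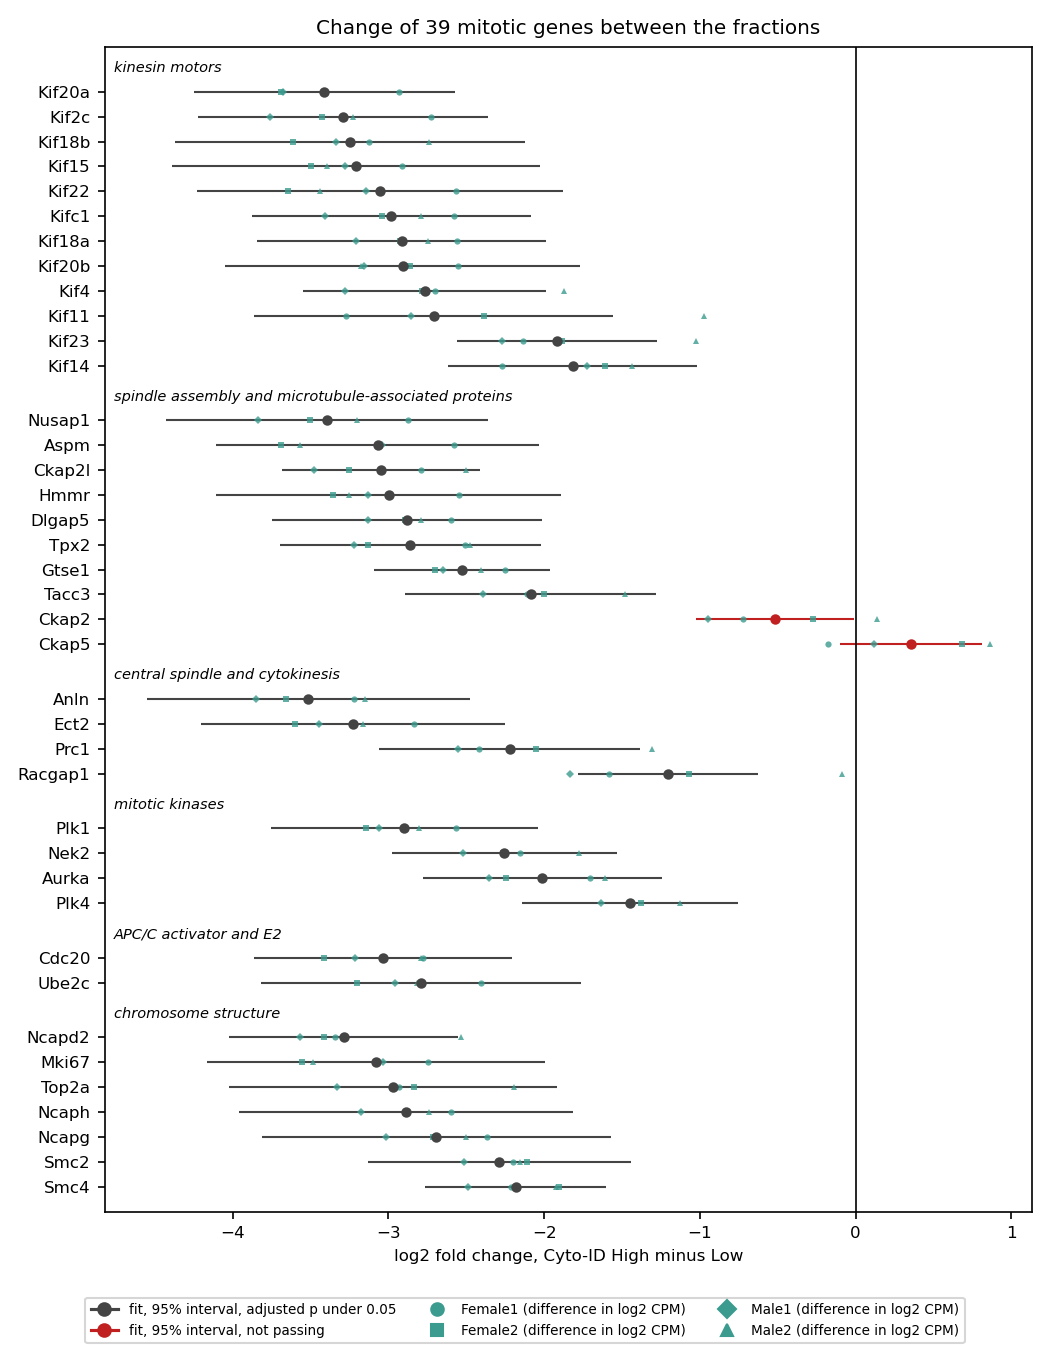
Log2 fold change of each gene, Cyto-ID High minus Low, with its 95% interval (grey where the adjusted p is under 0.05, red where it is not), and the difference in log2 CPM in each of the 4 animals (teal, marker shape the animal). Ckap2 and Ckap5 sit near 0, at −0.52 and 0.36, and Male2 lies to the right of the other animals for Kif11, Kif23, Prc1 and Racgap1, among others.

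All 4 genes of the central spindle and the cleavage furrow fell. Anln (anillin), a scaffold that links actin, myosin and septins in the furrow, had the most negative change of all 39 members (chr9:22332012-22389188 in GRCm38, minus strand). Its Low libraries had 224 CPM (Female1), 130.3 (Female2), 246 (Male1) and 71.7 (Male2), and its High libraries 23.9, 10.3, 17.0 and 8.03. Even the lowest Low library was far above the highest High library. The log2 fold change was −3.51 (SE 0.46, edgeR adjusted p 0.000191), which is an 11.4-fold decrease. Ect2, the exchange factor that activates RhoA at the equator, changed by −3.23 (SE 0.44), and Prc1, which bundles antiparallel microtubules of the central spindle, by −2.22 (SE 0.37). Exons of Rccd1 on the other strand cover 11.1% of Prc1.

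Racgap1, the other subunit of centralspindlin, had the smallest decrease among the 37 genes. Its Low libraries were at 89.0, 67.4, 98.3 and 41.8 CPM and its High libraries at 29.6, 32.1, 27.6 and 39.3, in the order Female1, Female2, Male1 and Male2. The groups did not overlap, but in Male2 the High library was at 94.0 percent of the Low library, against 28.0 to 47.6 in the others. The log2 fold change was −1.21 (SE 0.26, edgeR adjusted p 0.00338). Per length, Racgap1 and Kif23 stood close to 1 to 1 in Low (ratio 1.05 ± 0.09, SD, n = 4), and at 1.72 ± 0.40 in High, where the lowest ratio, 1.37, was above the highest in Low, 1.15.

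The 4 mitotic kinases fell by unequal amounts, with a median of −2.13. Plk1, which drives entry into mitosis and acts at poles, kinetochores and the midbody, had 36.0 CPM in Low Female1, 27.9 in Low Female2, 39.3 in Low Male1 and 14.4 in Low Male2, and 6.02, 3.09, 4.65 and 2.01 in High. Its High libraries were at 11.1 to 16.7 percent of the Low library of the same animal, and its log2 fold change was −2.90 (SE 0.38, edgeR adjusted p 0.000195). Nek2, which parts the centrosomes, changed by −2.26 (SE 0.32). Plk4, the kinase that starts centriole duplication before mitosis, had the smallest decrease of the 4. It stood at 9.85, 5.77, 9.04 and 4.35 CPM in the Low libraries and at 3.59, 2.18, 2.86 and 1.95 in the High libraries, which did not overlap, and changed by −1.45 (SE 0.31, edgeR adjusted p 0.00338).

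Aurka, the kinase that ripens spindle poles, changed by −2.01 (SE 0.34), and Tpx2, the protein that binds and activates it, by −2.86 (SE 0.37, edgeR adjusted p 0.000185). Per length, Aurka stood at 0.499 to 0.530 of Tpx2 in the 4 Low libraries and at 0.893 to 0.964 in the 4 High libraries. The ratio was thus nearly constant within a fraction although the levels of both genes differed more than 2-fold between animals in each fraction. The pairs of partners set side by side here were chosen with the fold changes known, and their ratios were not tested.

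Both genes that act with the APC/C fell, and the difference between their changes was not tested. Cdc20, its activator in mitosis, was the most abundant member per length of the union of exons in Low, at 60.0 ± 22.1 CPM per kilobase (SD, n = 4). It was followed by Smc4 at 35.7 ± 11.6 and Top2a at 30.9 ± 17.1, whose ranges within the group make their order uncertain. The union can exceed the length of a transcript by unequal amounts, so the ranking could differ with transcript lengths. Cdc20 had 149, 94.0, 143 and 62.5 CPM in Low and 21.6, 8.75, 15.4 and 8.95 in High, in the order Female1, Female2, Male1 and Male2, and changed by −3.03 (SE 0.37, edgeR adjusted p 0.000122). Ube2c, the enzyme that loads ubiquitin onto APC/C substrates, had 81.2, 50.3, 91.1 and 31.3 CPM in Low and 15.2, 5.40, 11.7 and 4.37 in High. It changed by −2.79 (SE 0.46, edgeR adjusted p 0.000746), and exons of Tnnc2 on the other strand cover 22.8% of it. In both genes every Low library was well above every High library.

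All 7 genes of chromosome structure fell, with a median of −2.89. Condensin I is made of Ncapd2, Ncapg and Ncaph on the Smc2 and Smc4 ring. Ncapd2 had the most negative change, from 139, 86.6, 140.3 and 54.6 CPM in the Low libraries to 13.7, 8.05, 11.8 and 9.36 in the High libraries, or −3.29 (SE 0.33, edgeR adjusted p 3.96e-05). Ncaph changed by −2.89 (SE 0.48) and Ncapg by −2.69 (SE 0.50), where exons of Lcorl on the other strand cover 13.4% of Ncapg. The ring subunits, which condensin II uses too, had smaller decreases, but the difference from the other subunits was not tested. Smc2 changed by −2.29 (SE 0.38), and Smc4 went from 228, 162, 241 and 112 CPM to 49.1, 43.1, 43.0 and 29.4, or by −2.18 (SE 0.26, edgeR adjusted p 0.000105). Top2a, the enzyme that untangles sister DNA, and Mki67 (Ki-67), the protein that coats mitotic chromosomes and serves as the usual marker of cycling cells, changed by −2.97 (SE 0.47) and −3.08 (SE 0.48).

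Related genes of the same families and pathways give the members a setting. Their counts stand beside 25.3% of all tested genes lower and 23.4% higher, and those under scaling by total counts beside 49.1% lower and 12.6% higher. Of 26 tested kinesins of interphase and transport, 6 were lower and 6 higher past the threshold, with a median of 0.09. Under scaling by total counts, which moved the median of all genes by −0.55, 10 were lower and 4 higher, with a median of −0.45. The extremes were Kif27 at −2.82 (SE 0.66), which had only 0.639 CPM in Low, and Kif1c, a transport motor, at 2.11 (SE 0.23), which rose from 232 ± 48 to 1009 ± 254 CPM (SD, n = 4 each). Of the 3 subunits particular to condensin II, Ncapg2 changed by −2.33 (SE 0.36) and Ncapd3 by −1.30 (SE 0.26). Ncaph2 did not pass, with 103 ± 9 CPM in Low against 115 ± 21 in High (SD, n = 4 each). Its log2 fold change was 0.15 (SE 0.15, edgeR adjusted p 0.45), and −0.43 under total counts, where all 3 subunits passed as lower. Per length, Ncaph stood at 0.108 to 0.342 of Ncaph2 in Low and at 0.0103 to 0.0579 in High, and Ncapd2 at 3.69 to 4.61 of Ncapd3 in Low and at 0.921 to 1.24 in High. The ratio of Ncapg to Ncapg2 overlapped between the fractions, at 0.971 to 1.48 in Low and 0.679 to 1.21 in High.

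Of 16 APC/C core subunits and partners, 7 were lower and none higher (edgeR's quasi-likelihood test), with a median of −0.26 and extremes of −1.27 (SE 0.15) for Cdc23 and 0.31 (SE 0.19) for Anapc2, which did not pass and was −0.28 under total counts. Under total counts 14 of the 16 were lower, with a median of −0.83. Of 14 genes of cohesin and its regulators, which hold sister chromatids together, 7 were lower and 1 higher, with a median of −0.63, and under total counts 12 were lower and 0 higher, with a median of −1.20. Esco2, the acetyltransferase that locks cohesin in S phase, changed by −3.16 (SE 0.54), and Wapl, which releases cohesin, rose by 0.52 (SE 0.16), a value of −0.05 under total counts. Of 23 genes of gamma-tubulin complexes, augmin and centrioles, 16 were lower and 2 higher, with a median of −0.89 and extremes of −2.32 (SE 0.23) for Haus4 and 0.86 (SE 0.19) for Tubgcp6. Under total counts 19 of these were lower and 0 higher.

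Among 18 genes of the contractile ring and of abscission, 10 were lower and 5 higher, with a median of −0.50. Under total counts 10 were lower and 4 higher, with a median of −1.06. Cit, the citron kinase of the midbody, changed by −3.07 (SE 0.40). Chmp4b, an ESCRT-III subunit that also works at other membranes, rose by 1.28 (SE 0.19), or 0.69 under total counts. Of 16 tubulins and general microtubule-associated proteins, 6 were lower and 7 higher, with a median of 0.25, and under total counts 8 were lower and 5 higher, with a median of −0.33. Stmn1, which sequesters tubulin, changed by −3.29 (SE 0.27), and the beta-tubulin Tubb2a rose by 2.99 (SE 0.25), from 89.5 ± 24.5 to 718 ± 218 CPM (SD, n = 4 each). Nearest to the members among these related lists were the 14 genes of mitotic entry and the chromosomal passenger complex. Of these, 13 were lower and none higher (edgeR's quasi-likelihood test), with a median of −2.52. Ccnb2, a mitotic cyclin, changed by −3.42 (SE 0.37), and Cdc25b did not pass at 0.50 (SE 0.27), or −0.11 under total counts.

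**Figure D4:**
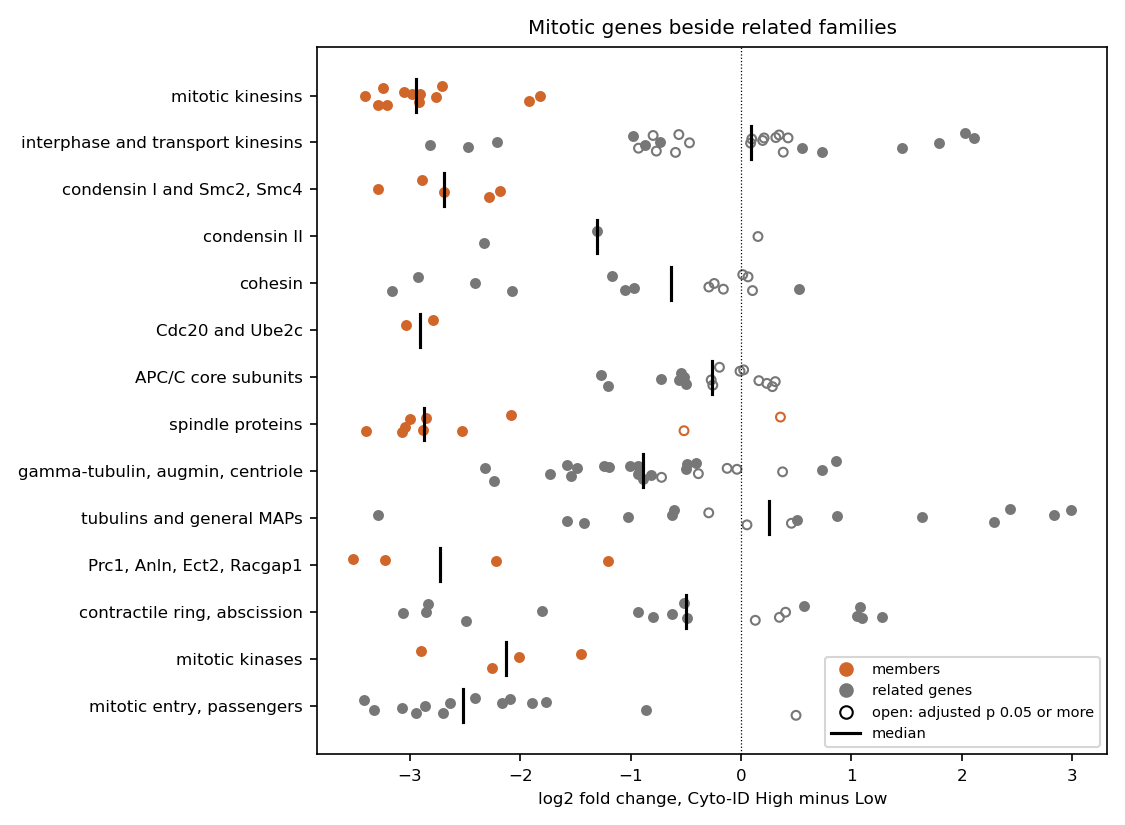
Log2 fold change of single genes in the members' role groups (orange) and in related families (grey), filled where the adjusted p is under 0.05, with a bar at each median. The 12 mitotic kinesins lie between −3.41 and −1.82, while the 26 interphase kinesins spread from −2.82 to 2.11.

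Most members had their highest and lowest levels in the same libraries. In the Low fraction the library of Male2 was the lowest for all 39 genes, and the highest was Male1 for 31 and Female1 for 8. In the High fraction Female1 was the highest for 34 genes, and Male2 was the lowest for 29 and Female2 for 8. Racgap1, with its highest High level in Male2, and Ckap5, with its lowest in Female1, did not follow this order. Neither did Kif11, Kif14 and Prc1, which were highest in the High library of Male1. Summed over the 39 genes, the Low libraries had 3467 CPM in Male1, 3273 in Female1, 2101 in Female2 and 1248 in Male2, and the High libraries 669 in Female1, 594 in Male1, 509 in Female2 and 428 in Male2. The median difference of the members, High minus Low, in log2 CPM was −2.57 (Female1), −2.89 (Female2), −3.13 (Male1) and −2.54 (Male2) (mean −2.78 ± 0.28, SD, n = 4).

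Within each fraction the libraries stood in the opposite order for the suprabasal markers. Their sum in Low was 9137 CPM in Male1, 13143 in Female1, 19842 in Female2 and 26597 in Male2, and in High it was 145061 in Female1, 145462 in Male1, 187916 in Female2 and 247412 in Male2. The sum of the basal markers in Low was 26255 CPM in Male1, 25242 in Male2, 23641 in Female2 and 22032 in Female1, which is not the order of the mitotic genes. With 4 libraries in a fraction no correlation was computed, and the part of the suprabasal share in the level of the mitotic genes was not tested. Without both libraries of Female2, which held the gastric transcripts, 37 members fell with a median of −2.84, beside 21.7% of all tested genes lower. Without both libraries of Male2, whose High library was low in leukocyte, fibroblast, endothelial and muscle transcripts, 38 fell with a median of −2.85, beside 20.7% of all tested genes lower. These were added after the data were seen, and both animals were not left out together.

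**Figure D5:**
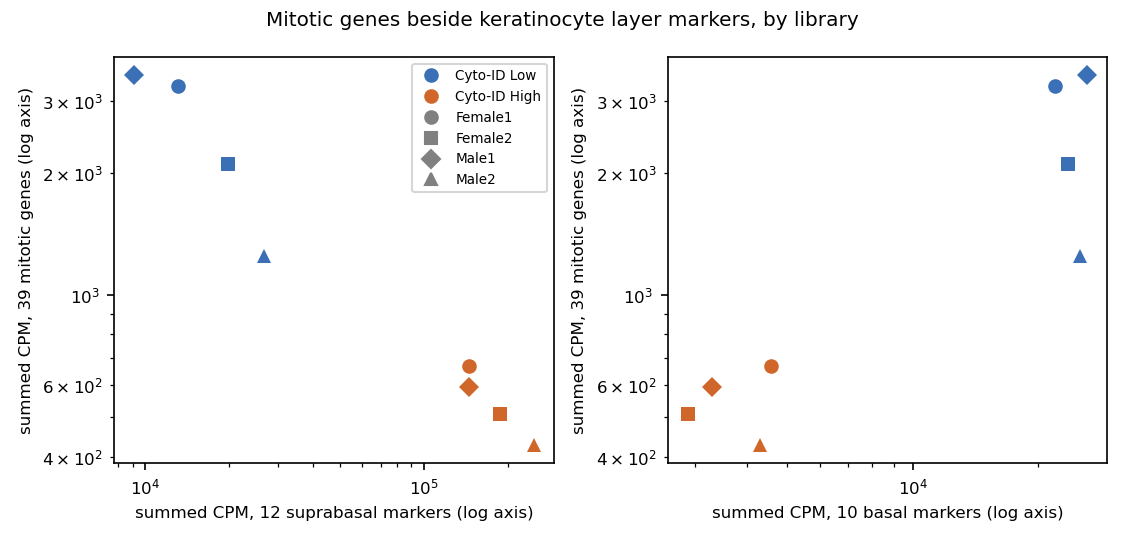
Summed CPM of the 39 mitotic genes (vertical, log axis) against the summed CPM of 12 suprabasal (left) or 10 basal markers (right, log axis), 1 point per library. On the left the points of each fraction descend from left to right, with Female1 and Male1 of the High fraction almost above each other (145061 and 145462), and on the right they follow no such order.

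Sex was the other labelled difference. No member passed the test of whether its High against Low difference depended on sex (0 of 39 by edgeR's quasi-likelihood test of the interaction, adjusted p under 0.05), where 0% of all 17344 tested genes passed. At an unadjusted p under 0.05 there were 0 members and 19 genes in all. Evenly spread p-values would put a share of 0.05 of the 17344 genes there. The 19 are far fewer, so this test was cautious, and the lack of calls says little about sex. The difference of males minus females ran from −0.63 (SE 0.81) for Kif2c to 0.62 (SE 1.04) for Kif11. The standard errors of 0.44 to 1.06 over the members correspond to unadjusted 95% intervals of 1.00 to 2.43 to either side. With 2 animals of each sex and adjustment over all genes, differences of that size could be missed too.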

How the data were processed

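The deposited table holds raw counts for 55276 gene symbols in 8 libraries, all whole numbers and with unequal totals. The submitters' processing notes name STAR 2.7.3, DESeq2 and the build GRCm38, with no role. The counter, annotation, strand setting and filters are not given in the sources used here, so reads of genes with overlapping exons are uncertain (16 of the 39 genes). Columns were matched to samples by the animal and fraction in their names.

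The test was edgeR's quasi-likelihood test (edgeR 4.0.16 in R 4.3.3) of High against Low, fitted to all 8 libraries with sex as a covariate. The filter filterByExpr left 17344 genes, and library sizes were scaled with TMM factors (trimmed mean of M values). Two-sided p-values were adjusted over all tested genes (Benjamini-Hochberg), with a threshold of 0.05. A standard error is the fold change divided by the root of F. Differences per animal are in log2 CPM with a prior count of 2. Levels per length use the union of exons in GENCODE release M21 (GRCm38), which can exceed the length of any 1 transcript. The fits were also run on simulated counts with few changed genes and no effect of the animal. That setting is simpler than these data, so it says nothing about the fits under pairing or many changes.

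The animal names pair the libraries. Deviations from the fraction means correlated across genes between libraries of an animal at 0.43 (Female1), 0.32 (Female2), −0.02 (Male1) and 0.28 (Male2). Between different animals they ran from −0.37 (High Male2 with Low Female1) to 0.35 (High Male1 with Low Female1). The latter is above the values within Female2, Male1 and Male2, so the pairing rests on the names. The animal as a replicate block was an alternative.

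The 39 members, their roles and the related and marker lists were chosen with earlier results of these data known. In each role group the members with the most and the least negative change are given by library, with those that did not pass. In each related list the genes with the most negative and most positive change are named. Sgol1 and Gif of the lists were found in the table as Sgo1 and Cblif. Promoter sequences are from RefSeq (GRCm38.p6). Those printed had to hold both motifs within the stretch shown, a condition added after the motifs were seen. The alternatives were RLE factors, total counts only, no filter, a minimum of 10 counts in each library, DESeq2 1.42.0, limma-voom (limma 3.58.1), robust dispersion, no covariate, the block, and each library left out. Leaving out both libraries of Female2 or of Male2 was added after the data were seen.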

Additional observations from a re-analysis of the deposited data

How the results depend on the processing

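Of the 39 genes, 37 had the same direction and call in all 19 alternatives, and the exceptions were Ckap2 and Ckap5. The number of members lower in Cyto-ID High was 37 or 38 throughout and 0 were higher. Of all tested genes, 13.5% (no filter) to 49.1% (total counts) were lower. From 11.5% (no filter) to 28.3% (a minimum of 10 counts) were higher, and 7269 to 10708 genes were called in either direction. With the replicate block, which pairs the libraries of an animal, 37 members were lower with a median of −2.88, beside 28.5% of all tested genes. The block changed the call of no member. The median of the members was −3.39 under scaling by total counts only, which moved the median of all genes by −0.55 and gave 49.1% of all genes lower, and from −3.16 (without the High library of Female1) to −2.39 (without the Low library of Male1) when each library was left out. The Low library of Male1 has the highest sum of these genes. Ckap5 turned to −0.21 under total counts (adjusted p 0.364, in a range of 0.0622 to 0.422). Ckap2 passed under total counts (−1.07, adjusted p 0.0045), without a filter (−0.56, adjusted p 0.012), without the Low library of Male2 (−0.68, adjusted p 0.0107) and without both libraries of Male2 (−0.61, adjusted p 0.0319), in a range of 0.0045 to 0.295. The cause was not tested. The interaction with sex gave 0 members and 0 genes in all its alternatives. The labels name separate animals, and p-values measure the spread between these. Kif11 in High, with 14 to 27 counts, is limited by depth.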
